A study of Mus musculus with 904 samples.

Results

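A-type potassium channels built on Kv4 pore subunits were followed through 8 genes: the pore subunits Kcnd2 and Kcnd3, the cytoplasmic subunits Kcnip1, Kcnip2, Kcnip3 and Kcnip4, and the transmembrane subunits Dpp6 and Dpp10. The genes were taken by name, and all 8 were found among the 32285 genes of the count table. Their levels were read in single nuclei with at least 1000 genes and 10000 reads, a filter that kept 835 of 904 nuclei.

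Kv4 channels open below the threshold of the action potential and inactivate within milliseconds. In neurons they carry the somatodendritic A-type current, which delays firing and damps action potentials that travel back into dendrites. The pore is a tetramer of Kcnd products. KChIP proteins, encoded by the Kcnip genes, are calcium sensors that bind the cytoplasmic start of the pore subunit, bring the channel to the surface and change its inactivation. Dpp6 and Dpp10 resemble dipeptidyl peptidases but lack enzyme activity, and they speed the gating of the channel. The same pore can therefore work differently according to the auxiliary subunits a neuron makes.

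All nuclei came from C57Bl/6J mice given 5e11 vg/mouse of an adeno-associated virus with the PHP.eB capsid, which reaches the brain from the blood, and were sorted for a fluorescent nuclear reporter 3 to 4 weeks later. Every reporter was driven by DLX2.0, an enhancer aimed at forebrain GABAergic neurons, and no uninjected control was among the samples. The titles name 16 constructs, given here without the leading DLX2.0 that all share. A total of 12 carry an RNA element beside a fusion of the yellow fluorescent protein SYFP2 with histone H2B: BORG-SYFP2-H2B-BC, 3xBORG-SYFP2-H2B-BC, 3xsmOPT-SYFP2-H2B-BC, U7snRNAOPT-SYFP2-H2B-BC, 3xU7snRNAOPT-SYFP2-H2B-BC and U7snRNAOPT-3'box-SYFP2-H2B-BC hold it before the fusion, and SYFP2-H2B-BORG-BC, SYFP2-H2B-3xBORG-BC, SYFP2-H2B-3xsmOPT-BC, SYFP2-H2B-U7snRNAOPT-BC, SYFP2-H2B-3xU7snRNAOPT-BC and SYFP2-H2B-U7snRNAOPT-3'box-BC after it. The other 4 are dTomato-H2B, SYFP2-10aa-H2Bmod-BC, SYFP2-P2A-3XFLAG-H2B and SYFP2-P2A-3XFLAG-H2B-SIRLOIN. The titles of dTomato-H2B nuclei also call them YFP+, although this construct names no yellow fluorescent protein. The treatment labels give 16 vector codes that do not follow the titles: each construct spans 4 to 5 codes and each code 3 to 9 constructs. No label names an animal, an age or a sex. Nuclei were grouped by the title, so p-values measure only the spread between the sums of nuclei under each title, which may be technical, and grouping by vector code was an alternative.

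Classes were set by CPM, the counts of a gene scaled to the summed counts of the nucleus, of their marker genes. The striatal projection class (Rgs9 at 20 CPM or more and Slc17a7 under 20) held 214 nuclei, the Sst class (Sst at 100 or more) 114, the Pvalb class (Pvalb at 20 or more and Sst under 100) 92, the excitatory class (Slc17a7 at 50 or more) 134, the astrocyte class (Aqp4 at 20 or more) 35 and the oligodendrocyte class (Mog at 20 or more) 37. Another 92 nuclei met at least 2 of these rules and were left out, 39 of them at the border of the striatal projection and Sst rules, and 117 met none. The labels place every nucleus in primary visual cortex, but the striatal projection class held 9957 CPM summed over 10 markers of striatal projection neurons such as Ppp1r1b and Drd1, against at most 1156 CPM in any other class. In that class the markers of cortical excitatory neurons Neurod6, Neurod2, Nrn1 and Slc17a6 were at 0 reads, Tbr1 and Cux2 were at 1.33 and 1.61 CPM, and Foxp2, also on that list, was at 287 CPM against 48.97 in the excitatory class. The marker sums of the other classes were highest in their own class among the classes named, with Pvalb markers at 4186 CPM in the Pvalb and 2173 in the Sst class. Markers of astrocytes, at 25275 CPM in the astrocyte class, reached 746 CPM in the striatal projection class, and their part in the results was not tested.

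Kept nuclei held 30023 to 719419 reads, a median of 260274. Class medians lay between 233164 reads (excitatory) and 325977 (oligodendrocyte), and between 3481.5 genes (excitatory) and 1144 (oligodendrocyte). The descriptions name 3 library pools, and the striatal projection class held 0 nuclei of pool S40317, from which 54 of the 134 excitatory nuclei came. Reads were summed over the nuclei of each construct and class where at least 3 nuclei were present, which gave 70 sums: 14 striatal projection, 15 Sst, 13 Pvalb, 14 excitatory, 8 astrocyte and 6 oligodendrocyte. A mean below is over these sums, with its SD and their number as n. Each class comparison was read from a single edgeR quasi-likelihood fit of 13749 genes with the construct as a block, and a gene is called at a Benjamini-Hochberg adjusted p under 0.05 over all genes tested. All 8 genes passed the filter on low counts in that fit.

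The differences between neuron classes described below turn mainly on Kcnip1, Kcnip2, Kcnip3 and Dpp10, so the starts of these genes are shown from RefSeq (build GRCm38.p6), each with 250 bases before and 50 after the first listed transcription start, 5′ to 3′ on the gene's own strand. Kcnip1 lies at chr11:33993144-33993443 on the minus strand (3 starts listed), Kcnip2 at chr19:45816014-45816313 minus (1 start), Kcnip3 at chr2:127522045-127522344 minus (3 starts) and Dpp10 at chr1:124045510-124045809 minus (1 start). Capitals mark GGGCGG, the core of an Sp1-type GC box, or TGANTCA, the AP-1 type motif, on either strand; TATAAA and TAATTA, a homeodomain-type core, were also searched.
Kcnip1: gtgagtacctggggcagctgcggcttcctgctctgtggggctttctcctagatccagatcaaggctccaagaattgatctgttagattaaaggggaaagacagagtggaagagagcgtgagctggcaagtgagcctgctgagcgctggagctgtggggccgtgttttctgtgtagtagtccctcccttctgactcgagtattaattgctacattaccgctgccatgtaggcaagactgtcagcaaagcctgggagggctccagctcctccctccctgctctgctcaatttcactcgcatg
Kcnip2: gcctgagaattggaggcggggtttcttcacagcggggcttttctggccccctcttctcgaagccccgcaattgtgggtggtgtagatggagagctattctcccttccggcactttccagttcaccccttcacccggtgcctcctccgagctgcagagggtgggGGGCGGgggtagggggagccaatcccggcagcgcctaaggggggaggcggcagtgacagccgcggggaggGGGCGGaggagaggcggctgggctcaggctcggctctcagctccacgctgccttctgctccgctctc
Kcnip3: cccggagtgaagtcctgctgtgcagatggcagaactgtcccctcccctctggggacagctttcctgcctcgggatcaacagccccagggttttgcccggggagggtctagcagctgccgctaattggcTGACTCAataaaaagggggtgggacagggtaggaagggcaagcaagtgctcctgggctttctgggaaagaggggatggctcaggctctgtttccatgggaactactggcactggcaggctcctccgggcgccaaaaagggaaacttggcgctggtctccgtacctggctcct
Dpp10: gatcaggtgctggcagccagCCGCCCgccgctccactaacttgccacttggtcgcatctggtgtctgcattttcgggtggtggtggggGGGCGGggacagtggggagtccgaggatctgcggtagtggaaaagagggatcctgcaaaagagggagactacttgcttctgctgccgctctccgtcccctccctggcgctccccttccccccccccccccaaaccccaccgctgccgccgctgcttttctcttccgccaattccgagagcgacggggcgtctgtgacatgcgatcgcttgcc
The Kcnip1 window held none of the motifs, Kcnip2 and Dpp10 held GGGCGG at 2 places each, and Kcnip3 held TGANTCA at 1 place. Among 32851 promoter windows of the same length, 35.66% held GGGCGG, 13.62% TATAAA, 5.291% TAATTA and 7.808% TGANTCA on either strand. GC content was 54.3% for Kcnip1, 60.3% for Kcnip3, 65% for Dpp10 and 67% for Kcnip2, against a median of 52.7% over all windows. These matches describe letters in 1 window per gene and were not tested against expression.

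Kcnd2, which encodes Kv4.2, had the highest mean of the Kv4 pore genes in every neuron class. Its level ran from 26.2 CPM (lowest construct) through a median of 171 to 257.8 (highest) in the striatal projection class, and from 0 through 97.4 to 300.9 in the Sst class. In the excitatory class it ran from 0 through 55.3 to 174.7 CPM, and in the Pvalb class from 0 through 35.01 to 109. All 14 striatal projection sums held Kcnd2 reads, 3 sums of each other neuron class held none, and the ranges of all 4 classes overlap. The striatal projection sums held 212 nuclei, against 112 in the Sst, 132 in the excitatory and 87 in the Pvalb sums. The part of these numbers in the sums without reads was not tested. The means, in falling order, were 151 ± 65.1 (SD, n = 14) in the striatal projection, 117 ± 101 (n = 15) in the Sst, 66.8 ± 58.6 (n = 14) in the excitatory and 39.7 ± 35.6 (n = 13) in the Pvalb class. No difference between neighbours in this order passed the test. The ends of the order, striatal projection against Pvalb, differed by a log2 fold change of 2.497 ± 0.98 (SE; edgeR adjusted p = 0.106), higher in 10 of 11 shared constructs. That difference was called with DESeq2 (adjusted p = 0.026), with limma voom (adjusted p = 0.0328) and with the legacy setting of edgeR off (adjusted p = 0.0157).

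Within the excitatory class Kcnd2 differed between library pools, at 126 CPM over the 54 nuclei of pool S40317, 43.5 over 47 nuclei of pool S40325 and 10.6 over 33 nuclei of pool S40327. The pools also hold different constructs, and which of the 2 the level follows cannot be told apart here. Without pool S40317 the striatal projection class exceeded the excitatory class by 3.60 on the log2 scale (adjusted p = 0.139), against 1.77 ± 0.96 (SE, adjusted p = 0.419) with all pools. In the striatal projection class Kcnd2 was at 169 CPM in pool S40325 and 116 in pool S40327.

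Kcnd3, which encodes Kv4.3, was at lower CPM than Kcnd2 in every neuron class and was patchy across constructs. Its means were 41.8 ± 48.1 CPM (SD, n = 15) in the Sst class, 35.7 ± 48.9 (n = 14) in the excitatory, 16.3 ± 21.3 (n = 14) in the striatal projection and 5.89 ± 10.9 (n = 13) in the Pvalb class. The Sst sums ran from 0 through a median of 25.2 to 128 CPM and the excitatory sums from 0 through 10.7 to 139, while the Pvalb sums ran from 0 to 30.95 with 8 of 13 at 0. The SD exceeded the mean in all 4 neuron classes, and every pair of classes overlapped. Sst against Pvalb stood at 4.11 ± 1.53 (SE, log2) with an adjusted p of 0.214 and Pvalb against excitatory at -4.002 ± 1.49 with an adjusted p of 0.0929. DESeq2 called both (adjusted p = 0.0213 and adjusted p = 0.0348), as did limma voom (adjusted p = 0.0344 and adjusted p = 0.00793). Within pool S40325 they stood at -0.38 and -0.26, and the fit without SYFP2-P2A-3XFLAG-H2B called Pvalb against excitatory (adjusted p = 0.0469). The exons of Kcnd3 overlap those of Kcnd3os on the opposite strand, and whether the counting used strand is not given in the sources used here.

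Genes were set side by side per kilobase of exon, which assumes that their reads come from exons. On that scale the summed mean level of Kcnd2 and Kcnd3 was 31.1 CPM per kb in the striatal projection and 27.1 in the Sst class. The sum was 16.7 in the excitatory and 8.33 in the Pvalb class. Kcnd2 made up 94.5% of this sum in the striatal projection, 92.6% in the Pvalb, 83.9% in the Sst and 77.7% in the excitatory class. Kcnd1, which encodes Kv4.1 and is not among the 8 genes, was at 3.80 CPM per kb in the striatal projection, 1.18 in the Sst, 1.35 in the excitatory and 4.54 in the Pvalb class. With it in the sum, Kcnd2 made up 84.2% in the striatal projection, 80.4% in the Sst, 71.9% in the excitatory and 59.96% in the Pvalb class. In the Pvalb class Kcnd1 was at 23.98 ± 54.2 CPM (SD, n = 13) with 5 sums at 0, and no difference of Kcnd1 between neuron classes was called. Exon length does not account for reads in introns, and whether those were counted is not given in the sources used here.

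**Figure D1:**
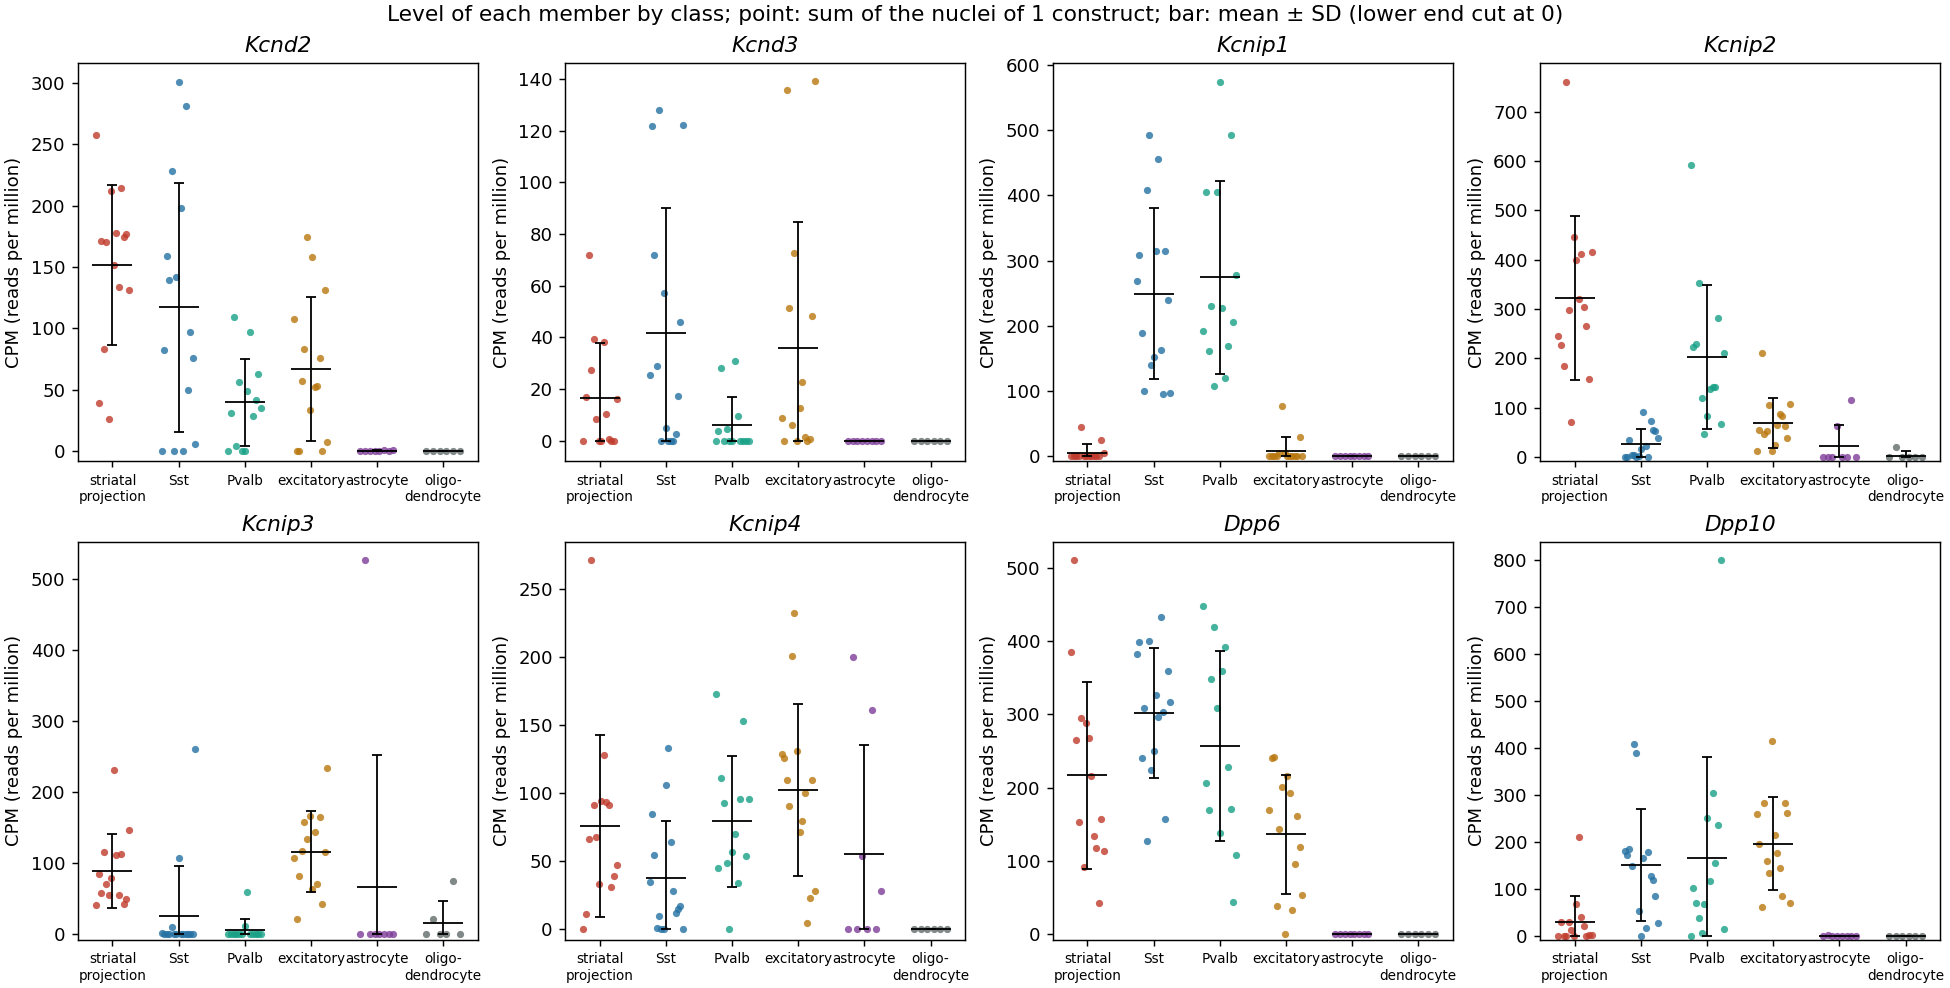
Level of each of the 8 genes in CPM (y axis) by class (x axis); each point is the sum of the nuclei of 1 construct and the bars are mean ± SD. Kcnip1 points of the Sst and Pvalb classes (95.2 to 574.5 CPM) all lie above those of the striatal projection and excitatory classes (0 to 76.8), while the ranges of Kcnd2, Kcnip4 and Dpp6 overlap among the 4 neuron classes.

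The KChIP genes each had their own order of classes. Kcnip1, which encodes KChIP1, was high in both interneuron classes and near 0 in the others. It ran from 108 CPM through a median of 226 to 574.5 in the Pvalb class and from 95.2 through 239.8 to 492.5 in the Sst class. In the excitatory class it ran from 0 to 76.8 CPM with 9 of 14 sums at 0, and in the striatal projection class from 0 to 44.6 with 11 of 14 at 0. The interneuron sums therefore did not overlap those of the other neuron classes. The means were 274 ± 148 (SD, n = 13) in the Pvalb, 249 ± 131 (n = 15) in the Sst, 8.18 ± 21.2 (n = 14) in the excitatory and 5.26 ± 13.1 (n = 14) in the striatal projection class.

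As ratios of these means, Kcnip1 was 52.1-fold higher in the Pvalb and 47.3-fold higher in the Sst than in the striatal projection class, and 33.5-fold and 30.4-fold higher than in the excitatory class. The fitted log2 fold change for striatal projection against Pvalb was -9.00 ± 1.27 (SE, edgeR adjusted p = 5.8e-07, lower in 11 of 11 shared constructs). Against Sst it was -8.81 ± 1.255 (edgeR adjusted p = 8.9e-07, 13 of 13). Both are larger in size than the log2 ratios of means, -5.70 and -5.56, and the cause of this was not tested. Sst exceeded excitatory by 7.81 ± 1.16 (adjusted p = 3.7e-06, 13 of 13) and Pvalb exceeded excitatory by 7.9998 ± 1.19 (adjusted p = 2.6e-06, 12 of 12). Both pairs of similar level, Sst against Pvalb (-0.19 ± 1.07, adjusted p = 1) and striatal projection against excitatory (-0.999 ± 1.12, adjusted p = 0.865), did not pass. The calls against the striatal projection class also passed within pool S40325 (adjusted p = 0.0327 for Pvalb and adjusted p = 0.0389 for Sst) and within pool S40327 (adjusted p = 0.00198 and adjusted p = 0.000194). Within a single pool Sst against excitatory had adjusted p = 0.0579 (S40325) and adjusted p = 0.0331 (S40327), and Pvalb against excitatory adjusted p = 0.0372 and adjusted p = 0.0575, with the same direction each time.

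Kcnip2, which encodes KChIP2, the partner that the fast transient current of mouse heart muscle depends on, was highest in the striatal projection class. It ran there from 71.6 CPM through a median of 301 to 760.3, with no sum at 0. In the Pvalb class it ran from 47.6 through 142 to 591.9, in the excitatory class from 12.96 through 58.8 to 211 and in the Sst class from 0 through 15.6 to 91.2. The striatal projection and Sst ranges overlapped at their edges, 71.6 against 91.2 CPM. In falling order the means were 322 ± 166 (SD, n = 14), 203 ± 146 (n = 13), 69.1 ± 50.9 (n = 14) and 26.5 ± 29.9 (n = 15).

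Among these, the 12.1-fold higher Kcnip2 mean of the striatal projection over the Sst class was called (log2 3.80 ± 0.93, SE; adjusted p = 0.00387; higher in 13 of 13 constructs). It was at 3.84 within pool S40325 (adjusted p = 0.0802) and at 7.93 within pool S40327 (adjusted p = 0.00429). Neighbours in the order were not separated: striatal projection against Pvalb stood at 0.47 ± 0.93 (adjusted p = 0.9), Pvalb against excitatory at 1.51 ± 0.91 (adjusted p = 0.424, higher in 12 of 12) and Sst against excitatory at -1.82 ± 0.94 (adjusted p = 0.35). Sst against Pvalb, with a 7.63-fold ratio of means, stood at -3.34 ± 0.97 with an adjusted p of 0.0614, lower in 11 of 12. It passed with DESeq2 (adjusted p = 0.000526), with limma voom (adjusted p = 7.6e-05), with nuclei of at least 2000 genes (adjusted p = 0.00523), with nuclei thinned to equal depth (adjusted p = 0.00499), without SYFP2-H2B-U7snRNAOPT-3'box-BC (adjusted p = 0.0439) and without the replicate block (adjusted p = 0.0254). Striatal projection against excitatory stood at 1.98 ± 0.94 (adjusted p = 0.297) and was called with limma voom (adjusted p = 0.0095), with nuclei of at least 2000 genes (adjusted p = 0.0153), with thinned nuclei (adjusted p = 0.0288) and with the legacy setting of edgeR off (adjusted p = 0.0442).

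Kcnip3 encodes KChIP3, also known as DREAM, a calcium-regulated transcriptional repressor, and calsenilin, a presenilin partner. It was present in both projection classes and scarce in the interneuron classes. Excitatory sums ran from 21.6 CPM through a median of 116 to 233.9 and striatal projection sums from 40.7 through 74.5 to 230.7. Among the Sst sums 11 of 15 were at 0, and among the Pvalb sums 10 of 13. The reads of these interneuron sums were concentrated: 77.7% of those in the Sst class came from dTomato-H2B (260.9 CPM, 5 nuclei) and 88.5% of those in the Pvalb class from SYFP2-H2B-U7snRNAOPT-BC (58.6 CPM, 8 nuclei), so the ranges overlap through single constructs.

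The Kcnip3 means were 115 ± 56.9 CPM (SD, n = 14) in the excitatory, 89.2 ± 51.9 (n = 14) in the striatal projection, 25.3 ± 70.7 (n = 15) in the Sst and 5.38 ± 16.3 (n = 13) in the Pvalb class. Against Pvalb, Kcnip3 was 16.6-fold higher in the striatal projection class by the means (log2 8.40 ± 1.76, SE; adjusted p = 0.00054; 11 of 11 constructs) and 21.5-fold higher in the excitatory class (Pvalb against excitatory -9.19 ± 1.82; adjusted p = 0.000272; 12 of 12). Against Sst the ratios were 3.53 (6.67 ± 1.77; adjusted p = 0.00808; higher in 11 of 13) and, for excitatory, 4.57 (Sst against excitatory -7.46 ± 1.75; adjusted p = 0.00342; lower in 11 of 13). Without the construct block neither Sst call held (log2 2.10, adjusted p = 0.393, and -2.45, adjusted p = 0.38). Within single pools the directions were the same, but striatal projection against Sst had adjusted p = 0.275 in pool S40325 and adjusted p = 0.0501 in pool S40327, and against Pvalb adjusted p = 0.0355 and adjusted p = 0.694. Sst against excitatory had adjusted p = 0.53 in pool S40325 and adjusted p = 0.0425 in pool S40327, and Pvalb against excitatory adjusted p = 0.0667 and adjusted p = 0.488. Excitatory and striatal projection, next to each other in the order, did not differ beyond their spread (-0.79 ± 1.12, adjusted p = 0.919).

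Kcnip4 encodes KChIP4, of which a splice form is known to slow inactivation of the channel. It was spread most evenly of the KChIP genes, with means of 102 ± 63.2 CPM (SD, n = 14) in the excitatory, 79.2 ± 48.05 (n = 13) in the Pvalb, 75.9 ± 66.97 (n = 14) in the striatal projection and 37.2 ± 42.4 (n = 15) in the Sst class. The medians were 105, 69.5, 66.9 and 16.7 CPM, and every range overlapped every other. None of its 6 differences between neuron classes passed, the nearest being Sst against excitatory (-1.997 ± 1.04, SE, log2; edgeR adjusted p = 0.355; limma voom adjusted p = 0.0226). Exons of 5730480H06Rik and Gm20700 overlap Kcnip4 on the opposite strand.

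Summed over the 4 KChIP genes, the mean level per kilobase of exon was 139.6 CPM per kb in the striatal projection, 125.9 in the Pvalb, 82.02 in the excitatory and 65.2 in the Sst class. On this scale the leading gene differed by class. Kcnip2 made up 66.4% of this sum in the striatal projection class. In the Sst class Kcnip1 led with 61.6%, and in the Pvalb class Kcnip2 (46.3%) and Kcnip1 (35.2%) together held most of it. The Pvalb order rests on the division by exon length, since by mean CPM Kcnip1 was above Kcnip2 (274 against 203). In the excitatory class Kcnip3 (39.7%), Kcnip4 (34.4%) and Kcnip2 (24.3%) shared the sum, with Kcnip1 at 1.61%. By the share of thinned excitatory nuclei with reads, Kcnip4 was above Kcnip3 (65.7% against 43.3%). Exon length does not account for reads in introns, and the genes span 24.2 kb (Kcnip2) to 1135 kb (Kcnip4).

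**Figure D2:**
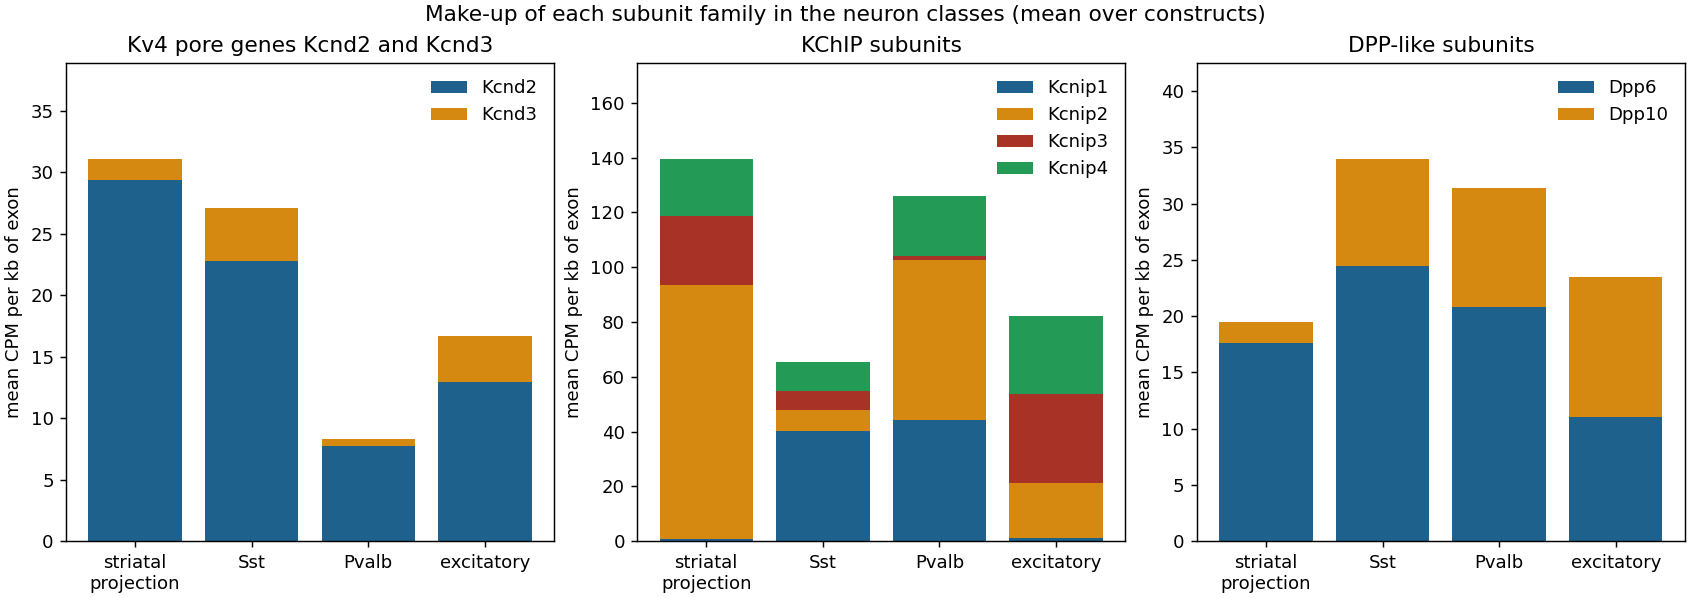
Mean level per kilobase of exon (CPM per kb, y axis) of the pore genes Kcnd2 and Kcnd3, the KChIP genes and the DPP-like genes, stacked by gene, in the 4 neuron classes (x axis). Kcnd2 fills 77.7% to 94.5% of the sum of both pore genes plotted. The largest part of the KChIP sum is Kcnip2 in the striatal projection and Pvalb classes, Kcnip1 in the Sst class and Kcnip3 in the excitatory class. By mean CPM, without the division by exon length, Kcnip1 is above Kcnip2 in the Pvalb class (274 against 203).

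Dpp6, the DPP-like subunit that in mouse hippocampus sets A-type current density in dendrites, was present in every neuron class. It ran from 128 CPM through a median of 309 to 433.3 in the Sst class, from 42.9 through 229 to 448.4 in the Pvalb class, from 42.7 through 187 to 510.7 in the striatal projection class and from 0 through 152 to 242.5 in the excitatory class. Of the 56 neuron sums, 1 excitatory sum was at 0. The means were 302 ± 89.1 (SD, n = 15), 257 ± 130 (n = 13), 217 ± 128 (n = 14) and 136 ± 81.2 (n = 14), and no pair passed. Sst against excitatory came nearest at 1.17 ± 0.56 (SE, log2; edgeR adjusted p = 0.282; higher in 11 of 13), and DESeq2 (adjusted p = 0.0132) and limma voom (adjusted p = 0.0479) called it.

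Dpp10, a relative of Dpp6 that also binds Kv4 channels, was lowest in the striatal projection class. It ran there from 0 CPM through a median of 8.09 to 212, with 5 of 14 sums at 0. The highest sum, SYFP2-H2B-U7snRNAOPT-BC, held 35.4% of the reads of the class. In the excitatory class Dpp10 ran from 61.4 through 187 to 416, in the Pvalb class from 0 through 103 to 800.04 and in the Sst class from 0 through 148 to 409.8. The striatal projection sums lay mostly under the others, although its highest construct reached into all 3 ranges. The means were 197 ± 98.7 (SD, n = 14) in the excitatory, 167 ± 214 (n = 13) in the Pvalb, 151 ± 119 (n = 15) in the Sst and 29.96 ± 56.2 (n = 14) in the striatal projection class.

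Against the excitatory class Dpp10 was 6.56-fold lower by the means in the striatal projection class (log2 -4.20 ± 1.02, SE; adjusted p = 0.00542; lower in 12 of 12 constructs). The striatal projection class has no nuclei in pool S40317, and without that pool the difference was -2.52 (adjusted p = 0.376). It was -3.08 within pool S40325 (adjusted p = 0.867), -1.48 within pool S40327 (adjusted p = 1) and -3.16 with nuclei grouped by vector code (adjusted p = 0.0535). Against Sst the striatal projection class was 5.03-fold lower by the means (-3.07 ± 0.95; adjusted p = 0.029; lower in 11 of 13). That call was lost without any 1 of 5 constructs: 3xsmOPT-SYFP2-H2B-BC (adjusted p = 0.0792), BORG-SYFP2-H2B-BC (adjusted p = 0.0702), dTomato-H2B (adjusted p = 0.0585), SYFP2-H2B-3xBORG-BC (adjusted p = 0.053) or U7snRNAOPT-3'box-SYFP2-H2B-BC (adjusted p = 0.0613). It was also lost by vector code (-1.99, adjusted p = 0.208), without the construct block (-2.11, adjusted p = 0.0744), with sums of at least 1 nucleus (-2.92, adjusted p = 0.0667) and without pool S40317 (-2.74, adjusted p = 0.13), and stood at -2.60 within pool S40325 (adjusted p = 0.259) and -2.05 within pool S40327 (adjusted p = 0.801). Against Pvalb Dpp10 stood at -2.74 ± 0.94 with an adjusted p of 0.0537, lower in 9 of 11. DESeq2 (adjusted p = 0.00382) and limma voom (adjusted p = 0.00556) called it, as did the fits without SYFP2-H2B-3xU7snRNAOPT-BC (adjusted p = 0.0444) or SYFP2-H2B-U7snRNAOPT-BC (adjusted p = 0.0183). Sst, Pvalb and excitatory did not differ from each other beyond the spread (adjusted p of 0.444 to 1).

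Per kilobase of exon the DPP-like sum was 33.99 CPM per kb in the Sst, 31.4 in the Pvalb, 23.5 in the excitatory and 19.5 in the striatal projection class. Dpp6 made up 90.3% of it in the striatal projection, 71.9% in the Sst, 66.3% in the Pvalb and 46.97% in the excitatory class, where Dpp10 held the rest.

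**Figure D3:**
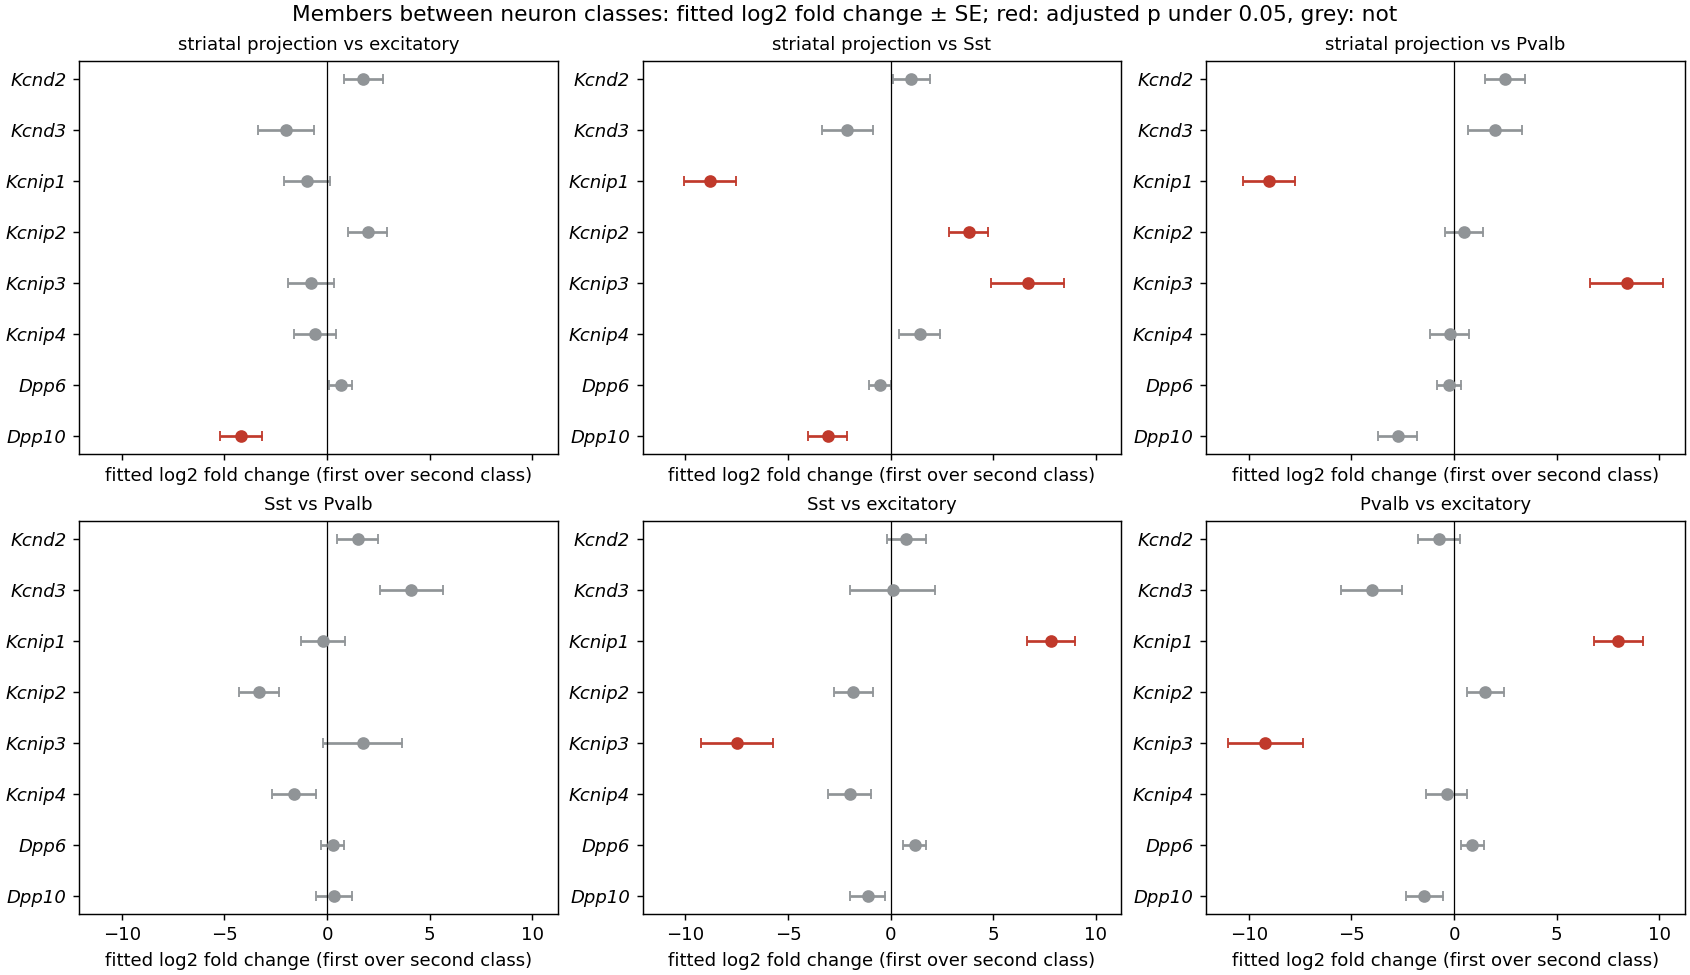
Fitted log2 fold change of each gene (x axis, first over second class, bars are SE) in the 6 comparisons of neuron classes; red points have an adjusted p under 0.05. Kcnip1 is red in 4 panels, Kcnip3 in 4, Dpp10 in 2 and Kcnip2 in 1, and Kcnd2, Kcnd3, Kcnip4 and Dpp6 are grey in all 6.

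Counted by comparison, 1 of 8 genes was called for striatal projection against excitatory (0 higher and 1 lower), where 5.08% of all genes tested were called. For striatal projection against Sst 4 of 8 were called (2 higher, 2 lower; 8.09% of all genes), and against Pvalb 2 of 8 (1 higher, 1 lower; 8.87%). For Sst against excitatory it was 2 of 8 (1 higher, 1 lower; 5.64%) and for Pvalb against excitatory 2 of 8 (1 higher, 1 lower; 7.28%). edgeR called 0 of 8 for Sst against Pvalb, where it called 1.37% of all genes and 1371 genes had an unadjusted p under 0.05. DESeq2 and limma voom called 2 of 8 there, Kcnd3 and Kcnip2. The comparisons share sums, so their counts are not independent. Median fitted changes over the 8 genes and over all genes were -0.69 and -0.39 for striatal projection against excitatory, 0.25 and 0.07 against Sst, 0.12 and 0.15 against Pvalb, 0.30 and 0.08 for Sst against Pvalb, -0.51 and -0.47 for Sst against excitatory, and -0.55 and -0.56 for Pvalb against excitatory.

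At the level of single nuclei the same genes were seen in part of each class. Shares were read after each nucleus was thinned to 30000 reads, and intervals are exact 95% Clopper-Pearson bounds that cover counting error only. Kcnip2 reads were present in 64.95% of striatal projection nuclei (58.2 to 71.3; 68.7% unthinned), 51.1% of Pvalb nuclei (40.4 to 61.7; 56.5%), 29.1% of excitatory nuclei (21.6 to 37.6; 35.1%) and 12.3% of Sst nuclei (6.88 to 19.7; 14.9%). Kcnip1 was present in 61.96% of Pvalb nuclei (51.2 to 71.9; 65.2% unthinned) and 55.3% of Sst nuclei (45.7 to 64.6; 57.02%), but in 5.22% of excitatory (2.13 to 10.5; 5.97%) and 1.40% of striatal projection nuclei (0.29 to 4.04; 1.40%). Glia were taken as the background, on the assumption, not tested here, that they lack these channels. Kcnip3 in both glial classes and Kcnip4 in astrocytes were not called lower than in neurons (below), so their glial shares are an uncertain background. Kcnip1 was in 0 of 35 astrocyte nuclei, which allows a share of up to 8.57% (3 counts over the nuclei). In oligodendrocytes it was in 0 of 37 nuclei, up to 8.11% by the same rule. At these numbers of glial nuclei, Kcnip1 shares as low as those of the excitatory and striatal projection classes were not distinguishable from the background. The highest glial share of any of the 8 genes was 11.4% (3.20 to 26.7), for Kcnip4 in astrocytes, at median depths of 286357 reads in astrocytes and 325977 in oligodendrocytes.

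Kcnip4 was the most widely detected KChIP gene in the excitatory class, at 65.7% (56.98 to 73.7; 75.4% unthinned), followed by Kcnip3 at 43.3% (34.8 to 52.1; 50% unthinned). Kcnip3 was in 31.8% of striatal projection nuclei (25.6 to 38.5; 35.05% unthinned) and in 3.51% of Sst (0.964 to 8.74; 4.39%) and 3.26% of Pvalb nuclei (0.678 to 9.23; 3.26%), no higher than the 8.11% (1.70 to 21.9) of oligodendrocytes. Dpp10 was in 70.9% of excitatory (62.4 to 78.4; 73.1% unthinned), 41.3% of Pvalb (31.1 to 52.1; 48.9%), 38.6% of Sst (29.6 to 48.2; 41.2%) and 11.2% of striatal projection nuclei (7.32 to 16.2; 13.1%). Dpp6 was in 76.3% of Sst nuclei (67.4 to 83.8; 82.5% unthinned), the highest share of any of the genes. Kcnd2 ranged from 37.4% of striatal projection (30.9 to 44.2; 41.6% unthinned) to 17.4% of Pvalb nuclei (10.3 to 26.7; 20.7%), and Kcnd3 from 15.7% of excitatory (9.97 to 22.95; 23.1%) to 4.35% of Pvalb nuclei (1.20 to 10.8; 6.52%). The order of the neuron classes by share was that of the mean CPM for all genes but Kcnd3, where excitatory and Sst changed places.

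**Figure D4:**
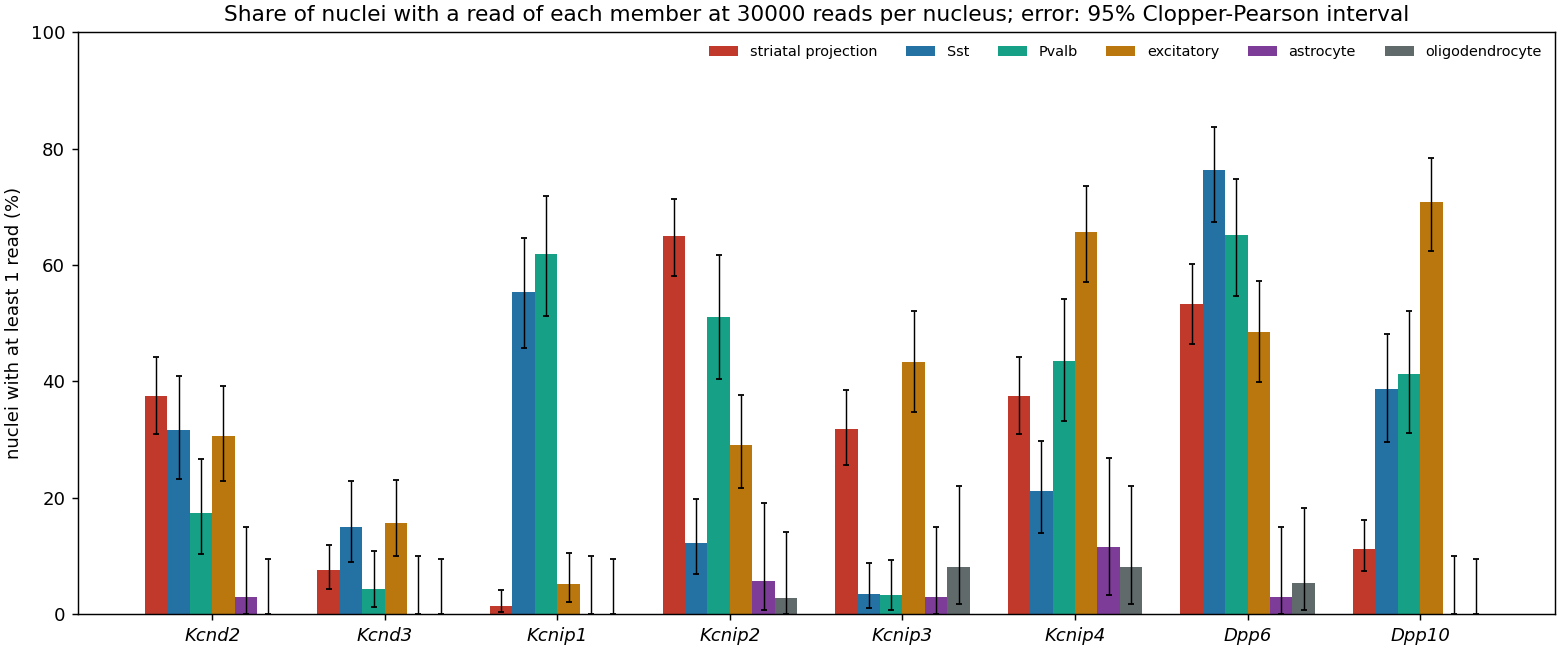
Share of nuclei with at least 1 read of each gene at 30000 reads per nucleus (y axis, %), by gene (x axis) and class (colour), with 95% Clopper-Pearson intervals. Kcnip1 bars stand at 61.96% and 55.3% in the Pvalb and Sst classes against 5.22% and 1.40% in the excitatory and striatal projection classes, and no astrocyte or oligodendrocyte bar exceeds 11.4%.

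A complete set, with at least 1 pore (Kcnd2 or Kcnd3), 1 KChIP and 1 DPP-like gene read in the same thinned nucleus, was seen in 30.6% of excitatory nuclei (22.9 to 39.1), 22.8% of Sst nuclei (15.5 to 31.6), 21.96% of striatal projection nuclei (16.6 to 28.1) and 14.1% of Pvalb nuclei (7.74 to 22.95), and in 0 glial nuclei. At least 1 pore gene was read in 40.7% of striatal projection, 39.5% of Sst, 37.3% of excitatory and 18.5% of Pvalb nuclei. At least 1 KChIP gene was read in 85.5%, 67.5%, 85.1% and 90.2% of the same classes, and at least 1 DPP-like gene in 58.4%, 85.1%, 81.3% and 80.4%. Reads of 2 or more KChIP genes were found in 54.3% of Pvalb (43.6 to 64.8), 46.3% of excitatory (37.6 to 55.1), 41.1% of striatal projection (34.5 to 48.03) and 21.9% of Sst nuclei (14.7 to 30.6). A gene without a read in a nucleus may still be expressed there, since thinning alone lowered many of these shares.

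Most of the Kv4 genes were lower in glia than in neurons. Of the 8 genes 6 fell in the astrocyte class against the mean of the neuron classes (39.3% of all genes called) and 7 in the oligodendrocyte class (33.4%). The median of all genes was itself at -2.98 and -3.02 on the log2 scale in these comparisons, and the medians over the 8 genes were -8.20 and -9.56. Dpp6 had 0 reads in the astrocyte and oligodendrocyte sums (edgeR adjusted p = 1.4e-12 and adjusted p = 4.9e-11), but nuclei outside the sums held some. Over all 35 astrocyte nuclei it had 44 reads, in 1 nucleus (4.16 CPM), and over all 37 oligodendrocyte nuclei 831 reads, in 2 nuclei (67.3 CPM). With sums of at least 1 nucleus, which take these in, both calls held (log2 -10.55, adjusted p = 1.7e-08, and -7.42, adjusted p = 0.000241). The bounds that follow set the glial class to 3 reads in all, against the pooled reads of the 4 neuron classes. They are given for genes without a read in any nucleus of that class, and cover the counting of reads alone. Since 1 nucleus can hold far more than 3 reads, as for Dpp6 above, the true difference may be smaller than a bound. Kcnip1 was at 0 in both, at least 307.8-fold and at least 334.3-fold lower, and so was Kcnd3, at least 74.7-fold and at least 81.2-fold lower. The Kcnip1 bounds rest mainly on the Sst and Pvalb reads. They do not extend to the striatal projection and excitatory classes, where its means were 5.26 and 8.18 CPM. Kcnd2 and Dpp10 were at 0 in oligodendrocytes, at least 375.8-fold and at least 379.9-fold lower. In astrocytes Kcnd2 had 3 reads in the sums but 57 over all nuclei (5.39 CPM), where sums of at least 1 nucleus gave -6.31 (adjusted p = 0.000696), and Dpp10 had 1 read (ratio 0.000953, counting interval 2.4e-05 to 0.00531). With sums of at least 5 nuclei the astrocyte calls of Kcnd2 (adjusted p = 0.0714), Kcnd3 (adjusted p = 0.286) and Kcnip1 (adjusted p = 0.162) and the oligodendrocyte call of Kcnd3 (adjusted p = 0.0705) were lost, and within pool S40327 both Kcnd3 calls were lost (adjusted p = 0.102 in astrocytes and adjusted p = 0.114 in oligodendrocytes).

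Kcnip2, Kcnip3 and Kcnip4 kept reads in some glial sums. Kcnip2 fell in astrocytes to 22.2 ± 43.4 CPM (SD, n = 8; log2 -4.61 ± 1.62, SE; adjusted p = 0.0195; lower in 8 of 8), a call lost without 3xBORG-SYFP2-H2B-BC (adjusted p = 0.0578), BORG-SYFP2-H2B-BC (adjusted p = 0.0575), SYFP2-H2B-3xsmOPT-BC (adjusted p = 0.0549), SYFP2-H2B-3xU7snRNAOPT-BC (adjusted p = 0.0566) or SYFP2-H2B-U7snRNAOPT-BC (adjusted p = 0.0584), within pool S40327 (-3.21, adjusted p = 0.329) and without pool S40317 (-4.27, adjusted p = 0.0663). In oligodendrocytes Kcnip2 was at 3.39 ± 8.30 CPM (SD, n = 6; -6.79 ± 1.87; adjusted p = 0.00361), a call lost with sums of at least 5 nuclei (adjusted p = 0.0525) and within pool S40327 (adjusted p = 0.0755). Kcnip3 did not pass in either glial class (-4.18 ± 2.10, adjusted p = 0.103, and -4.51 ± 2.07, adjusted p = 0.0812) but did in both with sums of at least 1 nucleus (adjusted p = 0.0431 and adjusted p = 0.0165), and 1 astrocyte nucleus supplied all 452 of its astrocyte reads. The astrocyte mean, 65.7 ± 186 CPM (SD, n = 8), was above the neuron mean of 59.2 ± 69.04 through that nucleus, opposite in sign to the fitted change. Without that nucleus's construct, 3xU7snRNAOPT-SYFP2-H2B-BC, Kcnip3 was called in astrocytes (-9.57, adjusted p = 0.00112), and without SYFP2-H2B-U7snRNAOPT-3'box-BC in both astrocytes (-5.82, adjusted p = 0.0115) and oligodendrocytes (-9.19, adjusted p = 0.00397). Kcnip4 stood in astrocytes at 55.4 ± 80.2 CPM (SD, n = 8), -1.21 ± 1.32 from neurons (adjusted p = 0.489), above the median of all genes, while in oligodendrocyte sums it was at 0 (adjusted p = 5.4e-05). Over all 37 oligodendrocyte nuclei Kcnip4 had 254 reads, in 3 nuclei outside the sums (20.6 CPM), and with sums of at least 1 nucleus the call was lost (-1.64, adjusted p = 0.341).

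The striatal projection class was split by dopamine receptor into 104 nuclei with Drd1 and 58 with Drd2 at 20 CPM or more and the other receptor below it, the markers of the direct and indirect pathway. Over all sums of at least 3 nuclei Kcnip2 was at 385 ± 192 CPM (SD, n = 10) with Drd1 and 273 ± 127 (n = 7) with Drd2, Kcnd2 at 159 ± 63.5 and 133 ± 95.7, Dpp6 at 199 ± 159 and 147 ± 103, and Kcnip3 at 116 ± 59.1 and 62.3 ± 37.2. The ranges overlapped for each of these genes. Over the 4 constructs with both groups the order of Dpp6 was the opposite, at 134 ± 73.97 CPM (SD, n = 4) with Drd1 and 198 ± 93.85 with Drd2, lower with Drd1 in 4 of 4 (log2 -0.48 ± 0.51, SE; adjusted p = 1), and with sums of at least 1 nucleus it stood at 1.74. Kcnip1 had 0 reads in both groups. Dpp10 was at 67.9 ± 146 and 2.25 ± 3.93, where 5 of 7 Drd2 sums were at 0 and a single Drd1 sum held 474.5 CPM. The test used 4 constructs with both groups, and edgeR called 0 of the 7 genes tested, with 0.0434% of all genes called (4 of 9208, with 223 at an unadjusted p under 0.05). DESeq2 and limma voom called 0 of them as well. Kcnip3 stood at 0.98 ± 0.86 (SE, log2; adjusted p = 1; higher with Drd1 in 3 of 4), where the median of all genes was 0.46. With 4 constructs the intervals stay wide, and the tests do not show that both pathways are alike.

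Excitatory nuclei were split into 35 superficial-layer nuclei (Cux2 at 20 CPM or more, Foxp2 and Fezf2 below) and 38 deep-layer nuclei (Foxp2 or Fezf2 at 20 or more, Cux2 below). Fewer than 4 constructs had both, so levels are given without a test. Dpp10 was at 216 ± 169 CPM (SD, n = 5) in superficial and 165 ± 53.1 (n = 7) in deep sums, Kcnip4 at 95.7 ± 63.6 and 97.5 ± 61.8, and Dpp6 at 139 ± 129 and 133 ± 70.3. Kcnip3 stood at 110 ± 70.4 and 191 ± 185, Kcnd2 at 113 ± 115 and 102 ± 85.9, and Kcnd3 at 15.3 ± 21.6 and 80.8 ± 137. The superficial and deep ranges overlapped for all 6 of these genes. Kcnip3 reads were in 42.9% of superficial and 63.2% of deep nuclei after thinning.

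No Kv4 gene was called between constructs whose titles place the RNA element after and before SYFP2-H2B. The vector codes do not follow the titles, and this fit was not repeated by vector code. Which element a nucleus received is therefore not settled here. Nuclei of all classes were summed together, so the class make-up of the constructs was not held equal. Over all kept nuclei of 6 pairs of constructs edgeR called 0 of 8 genes and 0% of the 13620 tested (302 with an unadjusted p under 0.05), limma voom called 0 of 8, and DESeq2, which called 0.573% of all genes, called 0 of 8. The largest fitted change was that of Kcnip3, at 56.5 ± 29.7 CPM (SD, n = 6) after and 38.2 ± 20.2 (n = 6) before, 0.62 ± 0.52 (SE, log2; adjusted p = 1), higher in 4 of 6 pairs. Dpp6 was lower after the fusion in 5 of 6 pairs, at 167 ± 37.5 against 214 ± 53.5 CPM, a log2 change of -0.29 ± 0.25 (adjusted p = 1), and stood at 0.82 (adjusted p = 1) in striatal projection nuclei alone.

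Other A-type channel genes were followed as a list of 7, among them Kcnd1, the remaining Kv4 pore gene; Kcna4 and Kcnc4, pore genes of other A-type or fast channels; and Kcnab1, Kcnab2 and Kcnab3, cytoplasmic beta subunits of Kv1 channels. All 7 were tested, and fold bounds for genes at 0 reads carry the limit given for glia. For striatal projection against excitatory 1 was called higher and 1 lower, with a list median of -0.21 (all genes -0.39): Kcnab1, named after its values were seen, was at 265 ± 108 CPM against 38.4 ± 50.3, and Kcnc4 had 0 reads against 22.6 ± 19.1 CPM, at least 507.9-fold lower. Against Sst 1 was higher and 2 lower (median 0.17, all genes 0.07), and against Pvalb 1 and 1 (median -1.54, all genes 0.15). Kcna4, which encodes Kv1.4, was the higher gene in both, at 124 ± 61.1 CPM in the striatal projection class against 13.6 ± 26.03 in Sst (log2 7.94 ± 1.59, SE; edgeR adjusted p = 0.000403) and 8.29 ± 24.3 in Pvalb (9.04 ± 1.63; adjusted p = 6.8e-05). Kcnc4 was again at 0 reads against 21.6 ± 34.9 CPM in Sst, at least 421.5-fold lower, and Kcnab3 was at 6.14 ± 13.4 CPM against 216 ± 128 in Pvalb (-6.35 ± 1.37; adjusted p = 0.000805).

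Between the other neuron classes edgeR called 0 of the 7 for Sst against Pvalb (median -1.05, all genes 0.08). For Sst against excitatory 1 was higher and 1 lower (median -1.53, all genes -0.47), and for Pvalb against excitatory 0 and 2 (median 1.16, all genes -0.56). Kcna4 was called lower in both interneuron classes, for Pvalb named after its values were seen (-5.52 ± 1.501, SE, adjusted p = 0.0142, and -6.63 ± 1.497, adjusted p = 0.00192) although its means lie closer, at 13.6 ± 26.03 and 8.29 ± 24.3 against 20.2 ± 21.1 CPM. Kcnc4 was called lower in Pvalb than in the excitatory class, at 3.04 ± 10.9 against 22.6 ± 19.1 CPM (-6.93 ± 2.24; adjusted p = 0.0437). In glia 4 of 7 fell in astrocytes (median -6.04, all genes -2.98) and 5 of 7 in oligodendrocytes (median -6.76, all genes -3.02). Among them Kcna4 was at least 210.5-fold lower in astrocytes, and in oligodendrocytes Kcnab3 was at least 200.9-fold lower, while Kcnab2 was at 0 reads in the sums and at 4 reads over all 37 nuclei. These bounds pool the neuron classes, and most neuron reads lay in the striatal projection class for Kcna4 and in the Pvalb class for Kcnab3. For Drd1 against Drd2 edgeR called 0 of the 4 tested (median 0.33, all genes 0.46), and for element position 0 of 7 (median 0.10, all genes 0.01).

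Relatives of the auxiliary subunits that are not part of Kv4 channels were followed as a list of 12, of which 11 were tested: the peptidase genes Dpp4, Dpp7, Dpp8, Dpp9 and Fap, and the calcium sensor genes Ncs1, Hpca, Hpcal1, Hpcal4, Ncald, Vsnl1 and Rcvrn. Against the excitatory class 0 rose and 3 fell in the striatal projection class (median -2.21, all genes -0.39), among them Ncald, the gene of neurocalcin delta, at 6.24 ± 12.5 against 243 ± 216 CPM (-5.98 ± 1.27, SE; edgeR adjusted p = 0.00141) and Dpp4 at 1.74 ± 4.58 against 19.8 ± 27.7 CPM (-5.39 ± 1.55; adjusted p = 0.0281). Dpp4 passed the filter on low counts mainly through the excitatory class, a limit given with its reads below. Against Sst 1 rose and 2 fell (median 0.41, all genes 0.07) and against Pvalb 1 rose and 2 fell (median -0.04, all genes 0.15). Ncald was lower in both, at 158 ± 173 CPM in Sst (-5.52 ± 1.23; adjusted p = 0.00137) and 161 ± 109 in Pvalb (-4.97 ± 1.15; adjusted p = 0.00197).

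For Sst against Pvalb edgeR called 0 of the 11 (median 0.18, all genes 0.08). Against the excitatory class 0 rose and 2 fell in Sst (median -1.53, all genes -0.47) and 0 rose and 3 fell in Pvalb (median -1.98, all genes -0.56). Fap was at 0 reads in both interneuron classes, at least 144.8-fold lower in Sst and at least 113.9-fold lower in Pvalb, against 11.1 ± 14.9 CPM in the excitatory class. Dpp4 was at 0.47 ± 1.82 CPM in Sst (-7.39 ± 1.77, SE, edgeR adjusted p = 0.0057) and at 0 reads in Pvalb, at least 115.8-fold lower. The bounds for genes at 0 reads carry the limit given for glia. Over all nuclei Fap held 491 reads in the excitatory and 13 in the striatal projection class. Dpp4 held 499 and 66 there and 19 in the Sst class. Both passed the filter on low counts mainly through the excitatory class. Their lower levels in other classes were therefore largely fixed in advance and are no independent result, also where the counts include them. In astrocytes 6 of 11 fell (median -4.34, all genes -2.98), with Ncald at 0 reads in the sums but at 177 reads over all 35 nuclei, in 1 nucleus (16.7 CPM), and in oligodendrocytes 2 of 11 (median -2.70, all genes -3.02). For Drd1 against Drd2 edgeR called 0 of the 7 tested (median 0.29, all genes 0.46), and for element position 0 of 11 (median 0.12, all genes 0.01).

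Across the 70 sums of construct and class, each gene was set against the other genes tested in the class fit by Pearson correlation of log2(CPM + 1). The genes that define the classes (Rgs9, Slc17a7, Sst, Pvalb, Aqp4 and Mog) were left out of the ranking. Sums of 1 class share their cell type and differ in depth, so the values describe the classes rather than single cells. Kcnip1 was most like Nxph1 (r = 0.963), the gene of a neurexin ligand, then Maf (0.927), a transcription factor of interneurons of the medial ganglionic eminence, and Kcnmb2 (0.897), a subunit of calcium-activated BK potassium channels. Dpp6 was most like Meg3 (r = 0.928), Scn1a (0.926), the gene of the sodium channel Nav1.1, and Rian (0.924). Meg3 and Rian are noncoding RNAs of a shared imprinted region. Dpp10 was nearest to Chga (0.833), the gene of chromogranin A, Chd5 (0.789) and Slc38a1 (0.788), and Kcnip2 to Epb41 (0.799), Grm5 (0.755), which encodes the glutamate receptor mGluR5, and Gabrg3 (0.751).

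Kcnip4 was nearest to Fam126b (r = 0.784), Zrsr2 (0.723) and Pard6a (0.720), and Kcnip3 to Ptk2b (0.770), Arpp21 (0.747) and Klf10 (0.744). The pore genes were less closely matched, Kcnd2 with Rbfox3 (0.755), the NeuN gene, Sgcz (0.733) and Fbxo11 (0.722), and Kcnd3 with Ctxn2 (0.646), Nell2 (0.623) and Kif22 (0.612). Within the complex the highest values were those of Dpp6 with Kcnd2 (0.585) and with Dpp10 (0.584) and the lowest that of Kcnip1 with Kcnip3 (-0.467).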

How the data were processed

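Single nuclei were profiled with SMART-Seq v4, and the table deposited by the authors holds whole-number read counts per gene and nucleus. Per the submitters' processing notes, STAR 2.7.2a and the build mm10 were used; the counting step, its use of introns and of strand are not given in the sources used here. Of 2501 columns 904 matched the labels of a sample, and the other 1597 were not used. Gene names came from GENCODE M21 (32235 of 32285 IDs matched, 50 without a name). No 2 libraries were identical.

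Nuclei with at least 1000 genes and 10000 reads were kept, given a class by CPM thresholds and summed per construct and class, with at least 3 nuclei per sum. Class comparisons were fitted on the counts with edgeR 4.0.16 (filterByExpr, TMM, quasi-likelihood F-test, R 4.3.3), with class and construct as terms over all 70 sums, so the spread is shared. The construct was a block because classes share its title; whether nuclei under 1 title share animals is not given. The Drd1 and position fits held their own sums and the construct or element as a block. SE is the log2 fold change divided by the square root of F. Alternatives used DESeq2 1.42.0, limma 3.58.1 (voom with quality weights), RLE scaling, no filter, other sum and gene minimums, doubled marker thresholds, thinned nuclei, vector codes, no block, single pools and each construct left out, for which the genes tested and the dispersions of the whole fit were kept. Levels and intervals were computed with Python 3.11.15, numpy 2.4.6, scipy 1.17.1 and pandas 2.3.3, and figures drawn with matplotlib 3.10.9.

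Named were the 8 genes in each comparison, up to 3 called genes of the 2 further lists by the size of the change, and the 3 genes most like each of the 8. The 8 genes and the lists were chosen with earlier results of these data known. PCR reads without molecular identifiers are not independent molecules, so intervals and limits cover counting error only. Thinning drew 30000 reads from each kept nucleus, none of which was shallower. A class at 0 reads in all its nuclei was set to 3 counts for a bound. A nucleus with reads can hold far more than 3, so such a bound is not a limit on the class at large. Some genes of the lists are not reported here.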

Additional observations from a re-analysis of the deposited data

Results flagged for a closer look

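In 10 of 53 groups of sums the highest construct stood far from the others. In these groups the gap to the next construct was 0.67 to 1 of the whole range. How often skewed values would give such a gap was not tested, and in several of these groups most sums are at 0. Kcnip3 in astrocytes was at 525.6 CPM in 3xU7snRNAOPT-SYFP2-H2B-BC (3 nuclei, reads in 1 of them) and at 0 in the other 7 constructs, and the same sum held the sole Dpp10 astrocyte read, 1.16 CPM. In oligodendrocytes Kcnip2 was at 20.3 CPM in that construct (6 nuclei) and 0 in the others, and Kcnip3 was at 74.8 CPM in SYFP2-H2B-U7snRNAOPT-3'box-BC (7 nuclei), next to 21.3.

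Among striatal projection nuclei, Dpp10 with Drd1 was at 474.5 CPM in SYFP2-H2B-U7snRNAOPT-BC (5 nuclei), next to 84.7, and Kcnd3 with Drd2 at 94.4 CPM in SYFP2-10aa-H2Bmod-BC (4 nuclei), next to 26.6. Among deep-layer nuclei dTomato-H2B (4 nuclei) held 384.8 CPM of Kcnd3, next to 89.1, and 590.3 CPM of Kcnip3, next to 213.9. Kcnip1 in deep-layer nuclei was at 107.6 CPM in SYFP2-H2B-3xU7snRNAOPT-BC (6 nuclei) and 0 in the others, and in superficial-layer nuclei at 17.4 CPM in SYFP2-H2B-3xBORG-BC (3 nuclei), next to 0.644. Each of these sums holds few nuclei.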

How the results depend on the processing

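Of 79 tested differences of the 8 genes 24 were called, 8 of these kept their call under every alternative run, and 0 changed sign; 12 others gained a call somewhere. The 8 were Kcnip1 for striatal projection against Sst and Pvalb, Dpp6 and Dpp10 in astrocytes, and Kcnd2, Kcnip1, Dpp6 and Dpp10 in oligodendrocytes. Kcnip3, not called in glia, turned from -4.18 to 0.32 in astrocytes without the construct block and from -4.51 to 1.75 in oligodendrocytes with sums of at least 5 nuclei. At equal depth 5 of 48 shares left the interval of the unthinned share. Superficial against deep layers was not tested, so its alternatives gave no value. Sums of few nuclei limit the calls, and the cause of each change below was not tested.

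For striatal projection against excitatory 1 gene was called; limma voom, nuclei of at least 2000 genes, thinned nuclei and edgeR with the legacy setting off, an alternative chosen after seeing the data, called 2, and the vector codes, each of pools S40325 and S40327 alone and the fit without pool S40317 called 0. Against Sst 4 were called, 1 within pool S40325, 2 within pool S40327 and 3 to 4 with 1 construct left out. Against Pvalb 2 were called, 4 with DESeq2, limma voom and legacy off, 1 within pool S40327, and 2 to 3 with 1 construct left out. For Sst against Pvalb edgeR called 0 (1371 of all genes at an unadjusted p under 0.05), DESeq2 and limma voom 2, and 1 was called without the low-count filter, with nuclei of at least 2000 genes, doubled marker thresholds, thinned nuclei and legacy off, and 0 to 1 with 1 construct left out. For Sst against excitatory 2 were called, 5 with limma voom and 0 within pool S40325. For Pvalb against excitatory 2 were called, 1 within pool S40325, 0 within pool S40327, and 2 to 3 with 1 construct left out. In astrocytes 6 were called, 3 with sums of at least 5 nuclei and 5 to 7 with 1 construct left out; in oligodendrocytes 7, and 7 to 8.

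Without the replicate block, that is, the construct, 2 genes were called for striatal projection against Sst, 1 for Sst against Pvalb and 1 for Sst against excitatory; no count of the 8 genes in another comparison moved by over 1.5 times. Of all genes, edgeR, DESeq2 and limma voom called 699, 1371 and 1651 for striatal projection against excitatory, 1112, 2163 and 1900 against Sst, 1219, 2343 and 1942 against Pvalb, 188, 1033 and 460 for Sst against Pvalb, 775, 1503 and 1517 for Sst against excitatory, and 1001, 1822 and 1727 for Pvalb against excitatory. They called 5401, 8229 and 7170 in astrocytes, 4587, 7862 and 7522 in oligodendrocytes, 4, 502 and 37 for Drd1 against Drd2 and 0, 78 and 0 for element position. Single pools called 8 to 284 genes between neuron classes.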
